A study of Mus musculus with 15 samples.

Results

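The chemokine ligands described here are 8 secreted proteins whose transcripts T cells can make after stimulation: Ccl1, Ccl3, Ccl4, Ccl5, Ccl20, Ccl22, Xcl1 and Cxcl10. They were found by matching the Ensembl identifiers in the deposited tables to these gene symbols in GENCODE vM21, which gave 8 genes of the 30949 listed in all 15 tables. With anti-CD3 and anti-CD28 beads, Ccl1, Ccl4 and Ccl20 transcripts rose in DOCK8-deficient and in WT regulatory T (Treg) cells alike in direction. Ccl3, Xcl1 and Cxcl10 also passed the test in WT cells. The results for Ccl4 in both genotypes and for Xcl1 and Cxcl10 in WT cells did not hold in every alternative processing described below. That of Cxcl10 held in 14 of 29. Ccl5 and Ccl22 passed the test in neither genotype, so for these genes the data do not show the induction by stimulation after which the ligands were grouped. By limma, no ligand passed the test for a difference between DOCK8-deficient and WT cells.

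Treg cells are CD4+ T cells that restrain other immune cells, and DOCK8 is a guanine nucleotide exchange factor that acts on the actin skeleton of lymphocytes. All cells were taken from the spleens and lymph nodes of C57BL/6 females of the genotype Foxp3YFP-Cre/+ Dock8flox/flox, sorted as CD25+CD39+ cells by flow cytometry, with CD3+ or CD4+ as the further marker in different labels. Both genotypes therefore carry floxed Dock8 and lie in the same kind of heterozygous female, and they were told apart by YFP: YFP+ cells, which express Cre from Foxp3, are called KO here and YFP- cells WT. The groups were KO with beads (n = 2), WT with beads (n = 3), KO unstimulated (n = 6) and WT unstimulated (n = 4), each cultured for 16 h, with 1 bead per cell or in medium alone. Cre and YFP expression are thus confounded with DOCK8 loss and cannot be told apart from it. KO cells were in this way also selected for Foxp3 expression, while WT cells were defined by surface markers and the lack of YFP. A difference in purity between the 2 sorts cannot be told apart from DOCK8 loss either. The labels call the samples independent without naming separate mice or cultures, so every p-value reflects sample-to-sample spread, which may be technical. RNA was profiled by Smart-Seq2, which amplifies polyadenylated transcripts from few cells, and values are TPM, a measure of transcript abundance scaled to transcript length and to the library. In bulk samples such as these, fewer cells making a transcript and less of it per cell cannot be told apart.

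Chemokines bind G protein-coupled receptors on leukocytes and guide their migration. CCL1 is the ligand of CCR8, and CCL22, best known from dendritic cells, binds CCR4; both receptors mark activated or tissue-homing Treg cells. CCL3, CCL4 and CCL5 are inflammatory ligands that draw T cells and myeloid cells, and CCL3 and CCL5 act through CCR1 among others. CCL20 binds CCR6 of Th17 cells, Treg cells and B cells, XCL1 attracts XCR1+ dendritic cells, and CXCL10 is an interferon-induced ligand of CXCR3.

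On mm10 (GRCm38), Ccl5 lies at chr11:83525778-83530518, Ccl3 at chr11:83647844-83649355 and Ccl4 at chr11:83662584-83664683, within 1 cluster. Ccl1 is annotated on the same chromosome at chr11:82176657-82305690, a span that reaches far upstream of its RefSeq start. Ccl20 lies at chr1:83116766-83119167, Ccl22 at chr8:94745590-94751699, Xcl1 at chr1:164931644-164935527 and Cxcl10 at chr5:92346638-92348889. Xcl1 overlaps Gm20743 and Cxcl10 overlaps Art3 on the opposite strand. These overlaps were taken from whole gene spans and not from exons, and the sources used here do not state a strand setting. Whether reads of the overlapping partners enter the values of those 2 ligands was not tested.

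RefSeq promoter sequences (GRCm38.p6) were found for 6 of the 8 ligands: Ccl1, Ccl3, Ccl20, Ccl22, Xcl1 and Cxcl10. The 250 bases before the RefSeq start are shown for Ccl1 and Ccl20, the ligands with the largest bead responses, for Cxcl10, which responded less, and for Ccl3, which holds neither of the motifs put in capitals. Capitals mark matches to the NF-kB consensus and, in Cxcl10, the AP-1 motif TGANTCA. The windows are chr11:82179813-82180062 (minus strand), chr1:83116516-83116765 (plus strand), chr5:92348890-92349139 (minus strand) and chr11:83649379-83649628 (minus strand). The Ccl1 window lies within the long GENCODE gene span but in none of its exons.
Ccl1 promoter: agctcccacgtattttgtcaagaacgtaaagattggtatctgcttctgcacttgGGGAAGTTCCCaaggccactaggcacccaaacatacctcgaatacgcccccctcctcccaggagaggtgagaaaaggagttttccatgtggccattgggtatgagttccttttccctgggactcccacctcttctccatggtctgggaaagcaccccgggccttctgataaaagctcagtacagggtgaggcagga
Ccl20 promoter: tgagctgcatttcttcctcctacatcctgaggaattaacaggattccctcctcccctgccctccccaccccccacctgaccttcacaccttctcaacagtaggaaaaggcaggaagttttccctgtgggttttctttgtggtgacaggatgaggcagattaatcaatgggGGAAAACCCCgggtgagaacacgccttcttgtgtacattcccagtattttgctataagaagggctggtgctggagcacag
Cxcl10 promoter: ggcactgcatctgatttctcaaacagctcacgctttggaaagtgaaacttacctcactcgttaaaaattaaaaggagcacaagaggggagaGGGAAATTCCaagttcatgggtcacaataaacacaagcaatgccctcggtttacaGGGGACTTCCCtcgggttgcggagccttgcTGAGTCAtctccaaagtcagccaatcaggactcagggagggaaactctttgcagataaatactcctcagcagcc
Ccl3 promoter: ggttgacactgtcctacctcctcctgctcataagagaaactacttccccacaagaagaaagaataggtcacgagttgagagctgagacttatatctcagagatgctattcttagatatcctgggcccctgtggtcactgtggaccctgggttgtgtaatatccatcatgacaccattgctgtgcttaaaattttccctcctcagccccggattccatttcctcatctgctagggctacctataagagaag

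Both strands of all 6 windows were searched. The NF-kB consensus matched in 3 of 6, those of Ccl1, Ccl20 and Cxcl10, and in 7.25% of the 32851 mouse windows of this length. TGANTCA was found in 1 of the 6, that of Cxcl10, and in 6.75% of all windows. The NFAT core GGAAA was found in 5 of the 6, all but Ccl22, against 55.6% of all windows, and in Ccl20 and Cxcl10 it overlaps an NF-kB match. These matches describe the letters of these windows and were not tested for binding.

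Summed over the listed genes, libraries held 832440 to 844008 TPM in KO cells with beads and 819697 to 836765 TPM in WT cells with beads. Unstimulated libraries held 864858 to 938139 TPM in KO cells and 839060 to 912942 TPM in WT cells. The deposited tables do not all list the same genes: 37740 were listed in at least 1 table and 30949 in all 15. Some gaps follow treatment, as Fcgr1 and Pf4 are not listed in the bead tables. The part of such differences between tables in the bead responses was not tested. Read depth cannot be recovered from TPM and is unknown. The 10 Treg markers on the list used here, Foxp3 among them, averaged at least 5 TPM in every group. Their sum was 1537 to 1656 TPM in KO cells with beads and 1552 to 1561 TPM in WT cells with beads, against 359 to 545 TPM in unstimulated KO cells and 564 to 989 TPM in unstimulated WT cells. It thus moved with beads and, without beads, was lower in KO without overlap, and its part in the ligand levels was not tested. Dock8 had 7.90 and 5.82 TPM in KO cells with beads, against 8.71, 10.1 and 8.91 TPM in WT cells with beads. Without beads it spanned 6.70 to 11.9 TPM in KO cells and 9.15 to 21.98 TPM in WT cells, and the ranges overlapped. A gene sum includes exons outside the floxed part, so this is a weak check of the labels. The 55 abundant predicted genes (mean over 1000 TPM) held 19.4% to 26.3% of TPM in KO cells with beads and 14.5% to 20.2% in WT cells with beads, against 36.7% to 57.6% in unstimulated KO cells and 24.5% to 45.4% in unstimulated WT cells. That share moves with the bead treatment, and bead responses rescaled without those genes are given below.

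**Figure D1:**
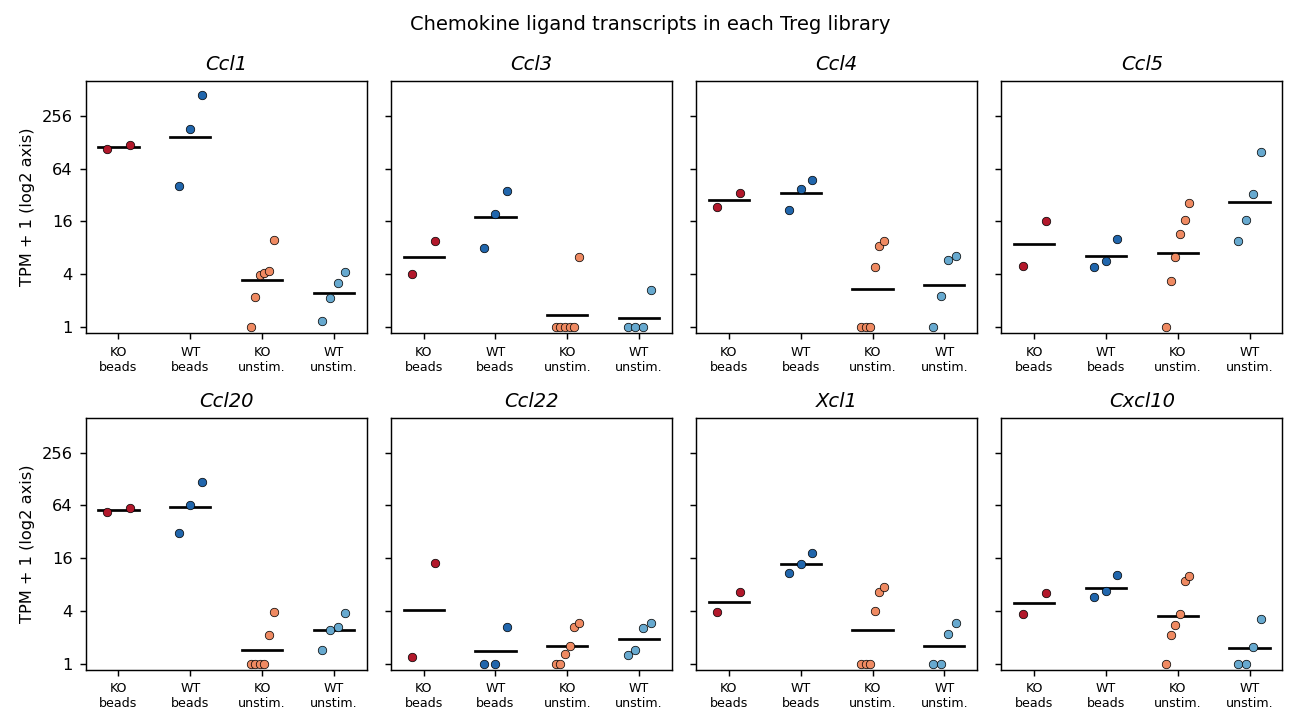
Level of each chemokine ligand as TPM + 1 (log2 axis) in each library of the 4 groups; points are libraries and bars are group means of log2(TPM + 1). Ccl1, Ccl4 and Ccl20 in every bead library lie above every unstimulated library, while Ccl5 reaches its highest value, 97.4 TPM, in an unstimulated WT library.

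Summed over the 8 ligands, the level was 207 and 244 TPM in KO cells with beads and 266, 651 and 197 TPM in WT cells with beads. It spanned 11.9 to 51.8 TPM in unstimulated KO cells and 20.4 to 104 TPM in unstimulated WT cells. Bead libraries thus stood above all unstimulated libraries, and the highest unstimulated value was mostly Ccl5, which made up 93.6% of that library's sum. In the WT bead library numbered 2, Ccl1 alone made up 68.1% of the sum.

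**Figure D2:**
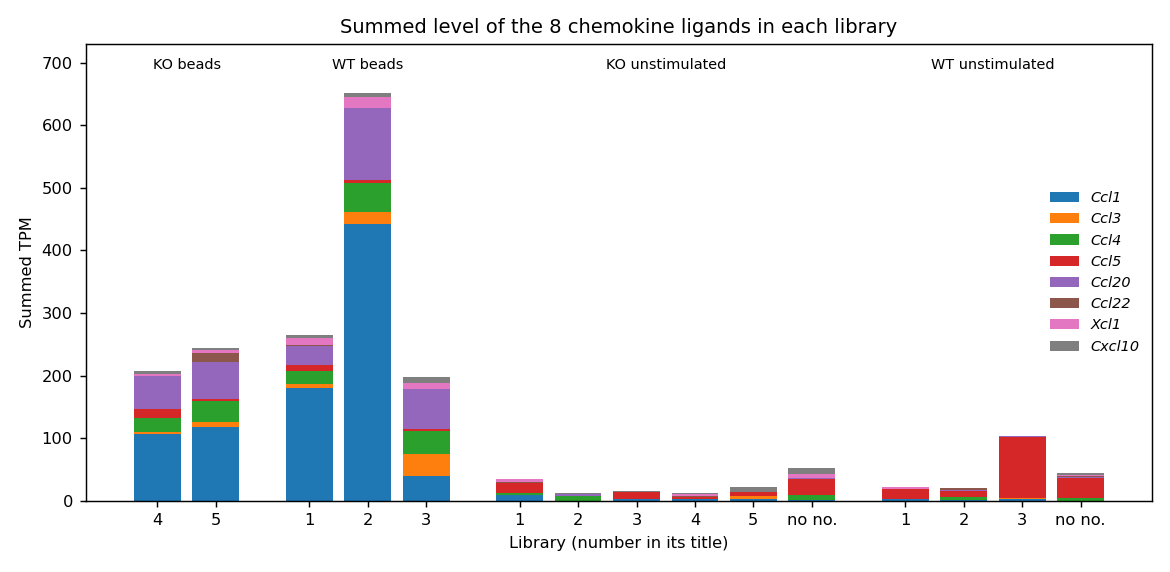
Summed TPM of the 8 ligands in each library, with bars starting at 0 and colours giving the part of each ligand. Bead libraries hold 197 to 651 TPM, mostly Ccl1, Ccl20 and Ccl4, and Ccl5 is the largest part of 7 of the 10 unstimulated libraries.

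With beads, the ligands kept a clear order in KO cells, where Ccl1 averaged 112 ± 8.02 TPM, Ccl20 55.8 ± 5.05 TPM and Ccl4 27.5 ± 7.38 TPM (SD, n = 2), with no overlap between neighbours. The other 5 ligands averaged 4.05 to 9.47 TPM in KO cells and their ranges overlapped. In WT cells Ccl1 averaged 221 ± 205 TPM, Ccl20 69.7 ± 43.3 TPM, Ccl4 34.5 ± 12.8 TPM, Ccl3 20.02 ± 13.8 TPM and Xcl1 13.2 ± 3.78 TPM (SD, n = 3). Each of these overlapped its neighbour in the order. Cxcl10 (6.59 ± 2.39 TPM) and Ccl5 (5.84 ± 2.81 TPM) came next in WT cells without overlap with Xcl1, and Ccl22 was last at 0.546 ± 0.946 TPM. Without beads Ccl5 had the highest mean of the ligands in both genotypes.

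The bead response was tested in each genotype with limma on log2(TPM + 1), adjusted over 29989 genes. In KO cells 3 of the 8 ligands were called higher and 0 lower, beside 5.95% of all genes called higher and 2.15% called lower. In WT cells 6 of the 8 were called higher and 0 lower, beside 4.60% of all genes higher and 6.63% lower. The ligands were grouped after induction by stimulation and chosen with earlier results of these data known. Counts and medians set beside all genes here are thus a description and not a test. The WT count was 3 with a pseudocount of 0.1 TPM, 3 without the WT bead library numbered 2, and 4 after rescaling without the abundant predicted genes. The median difference of the 8 ligands was 1.78 in KO cells on the log2 scale, against -0.22 over all genes tested, and 3.30 in WT cells, against -0.44 over all genes tested. All 8 ligands passed the filter of 1 TPM in 2 libraries, and each reached 1 TPM in at least 2 unstimulated libraries. After that rescaling the KO responses were 4.94 for Ccl1, 2.53 for Ccl3, 3.49 for Ccl4, 0.10 for Ccl5, 5.67 for Ccl20, 1.29 for Ccl22, 1.11 for Xcl1 and 0.23 for Cxcl10. The WT responses were 5.97 for Ccl1, 4.19 for Ccl3, 3.41 for Ccl4, -2.44 for Ccl5, 4.64 for Ccl20, -0.83 for Ccl22, 3.33 for Xcl1 and 2.48 for Cxcl10. Rescaling ended the calls of Ccl4 in both genotypes and of Cxcl10 in WT cells, and no other. The WT, KO and averaged responses share libraries and are not independent of each other.

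Ccl1, the CCR8 ligand, had 106 and 118 TPM in KO cells with beads, against 0 to 8.77 TPM (median 3.02) in unstimulated KO cells. In WT cells it had 180, 443 and 39.8 TPM with beads, against 2.20, 1.15, 3.25 and 0.166 TPM without. No bead library overlapped an unstimulated one. The log2 difference was 5.06 ± 0.83 in KO cells (limma, SE; adjusted p = 0.00162) and 5.94 ± 0.77 in WT cells (limma, SE; adjusted p = 0.000458). WT bead libraries spread from 39.8 to 443 TPM, a range that holds both KO values.

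Ccl20, the CCR6 ligand, had 52.2 and 59.4 TPM in KO cells with beads, against 0 to 2.87 TPM (median 0) in unstimulated KO cells. WT cells had 30.2, 116 and 62.8 TPM with beads, against 0.425, 2.79, 1.40 and 1.61 TPM without. Again no bead library overlapped an unstimulated one, in a comparison where 11.2% of all genes in KO and 8.61% in WT cells were higher without overlap. The log2 difference was 5.32 ± 0.60 in KO cells (limma adjusted p = 0.000133) and 4.67 ± 0.56 in WT cells (limma adjusted p = 0.000246). Both the Ccl1 and Ccl20 calls held in every alternative run, in both genotypes.

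Ccl4, which draws T cells and myeloid cells, had 22.3 and 32.7 TPM in KO cells with beads, against 0 to 8.55 TPM (median 1.89) in unstimulated KO cells. WT cells had 20.6, 45.9 and 36.9 TPM with beads, against 1.26, 5.46, 0 and 4.83 TPM without. The groups did not overlap in either genotype, and the log2 difference was 3.38 ± 0.94 in KO cells (limma adjusted p = 0.0382) and 3.47 ± 0.88 in WT cells (limma adjusted p = 0.0197). With TPM rescaled without the abundant predicted genes the differences were 3.49 and 3.41, with limma adjusted p of 0.0858 in KO cells (0.00678 to 0.303 over all alternatives) and 0.0608 in WT cells (0.00217 to 0.114 over all alternatives), so these calls depend on that choice. The KO call was also lost without either KO bead library, without the WT bead library numbered 2 or 3, or without the unstimulated KO library numbered 3, 4 or 5. The WT call was lost without the WT bead library numbered 2 or 3 or the unstimulated WT library numbered 1 or 3.

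Ccl3, encoded next to Ccl4, had 3.04 and 8.53 TPM in KO cells with beads. Of 6 unstimulated KO libraries 5 were at 0 and the library numbered 5 had 5.22 TPM, so the KO groups overlapped. WT cells had 7.01, 18.5 and 34.5 TPM with beads, against 0, 0, 1.64 and 0 TPM without. The log2 difference was 2.19 ± 0.74 in KO cells, where it was not called (limma adjusted p = 0.0874), and 3.80 ± 0.69 in WT cells (limma adjusted p = 0.00336). Without the unstimulated KO library numbered 5, the KO value was 2.63 (limma adjusted p = 0.0133, and 0.0133 to 0.552 over all alternatives).

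Ccl5, a ligand known from memory and cytotoxic T cells, was not called with beads. It had 14.99 and 3.96 TPM in KO cells with beads, against 0 to 25.1 TPM (median 7.96) in unstimulated KO cells. WT cells had 9.05, 4.59 and 3.86 TPM with beads, against 15.4, 8.58, 97.4 and 32.1 TPM without. All groups overlapped, and the log2 difference was 0.37 (95% interval -1.84 to 2.58) in KO cells and -2.04 (95% interval -4.11 to 0.03) in WT cells (limma adjusted p = 0.88 in KO, 0.196 in WT). The summed level of 12 CD8 T and NK cell markers was 26.0 to 38.7 TPM in KO cells with beads, 16.6 to 25.1 TPM in WT cells with beads, 31.0 to 79.1 TPM in unstimulated KO cells and 59.6 to 75.6 TPM in unstimulated WT cells. Cd8a and Klrb1c of that list were called lower with beads in WT cells and the other 9 tested were not, beside 6.63% of all genes called lower. Of the 12 markers, Gzma and Tyrobp were at 0 in both KO bead libraries, and 2 others averaged at least 5 TPM there. The part of such cells in the Ccl5 level was not tested. The library with 97.4 TPM of Ccl5 was unstimulated WT number 3. It had the lowest CD8 T and NK cell marker sum of its group, at 59.6 TPM within 59.6 to 75.6 TPM. It had the highest sums of its group for B cell markers (558 TPM, against 247 to 389 TPM in the other 3), for myeloid and dendritic cell markers (93.8 TPM, against 56.6 to 79.2 TPM) and for Treg markers (989 TPM, against 564 to 689 TPM), and the lowest share of abundant predicted genes, 24.5%.

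Xcl1, the ligand of XCR1, had 2.92 and 5.48 TPM in KO cells with beads, against 0 to 6.39 TPM (median 1.51) in unstimulated KO cells. WT cells had 12.5, 17.2 and 9.77 TPM with beads, against 1.88, 0, 0 and 1.20 TPM without. The groups overlapped in KO cells and not in WT cells. The log2 difference was 1.07 ± 0.80 in KO cells (limma adjusted p = 0.488) and 3.13 ± 0.75 in WT cells, where it was called (limma adjusted p = 0.0145). Without the WT bead library numbered 1 or 2 the WT value was 3.14 or 2.93, with limma adjusted p of 0.0514 or 0.064 (0.0028 to 0.0651 over all alternatives).

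Cxcl10, the interferon-induced ligand, had 5.39 and 2.70 TPM in KO cells with beads, against 0 to 8.89 TPM (median 2.21) in unstimulated KO cells. WT cells had 4.75, 5.72 and 9.30 TPM with beads, against 0, 0.545, 0 and 2.23 TPM without. The KO groups overlapped and the WT groups did not. The log2 difference was 0.48 ± 0.75 in KO cells (limma adjusted p = 0.771) and 2.30 ± 0.70 in WT cells (limma adjusted p = 0.0453). The WT call lay just under the threshold and held in 14 of 29 alternatives, with limma adjusted p of 0.0137 to 0.165 over them.

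Ccl22, the CCR4 ligand, was at 0.189 TPM in 1 KO bead library and at 13.1 TPM in the other. Unstimulated KO cells had 0 to 1.93 TPM (median 0.423), and WT cells had 1.64, 0 and 0 TPM with beads, against 0.268, 1.91, 0.413 and 1.57 TPM without. A value above 1.93 TPM was thus found in a single library, number 5 of the KO bead group. The log2 difference was 1.38 (95% interval -0.23 to 2.98) in KO cells and -0.47 (95% interval -1.97 to 1.03) in WT cells, neither called (limma adjusted p = 0.318 in KO, 0.713 in WT). Without that library the KO difference was -0.41, and without the other KO bead library it was 3.16 (limma adjusted p = 0.831 and 0.0427, the range over all alternatives). The summed level of 16 myeloid and dendritic cell markers was 65.2 TPM in that library, the lowest of the 5 bead libraries, against 91.7 TPM in the other KO bead library and 69.3 to 116 TPM in WT cells with beads. It was 33.2 to 99.2 TPM in unstimulated KO cells and 56.6 to 93.8 TPM in unstimulated WT cells, mostly Cst3. Of the 16 markers 1 averaged at least 5 TPM in KO cells with beads, and levels of single dendritic cell markers are not given here. S100a9 was at 0 in both KO bead libraries and Fcgr1 is not listed in the bead tables. Lyz2, which not every table lists, went the other way and added to sums of bead libraries only. The sums with and without beads are thus not like for like. Of the 13 tested, 1 was called higher with beads in KO cells, Cst3 (1.56, limma adjusted p = 0.0498), and 1 lower in WT cells, Ms4a7. In the averaged response 1 was called higher, Cst3, and 2 lower, Flt3 and Ms4a7. Of all genes 5.95% were called higher in KO cells and 6.63% lower in WT cells. In the averaged response these shares were 9.08% higher and 12.1% lower. The part of such cells in the Ccl22 level was not tested.

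**Figure D3:**
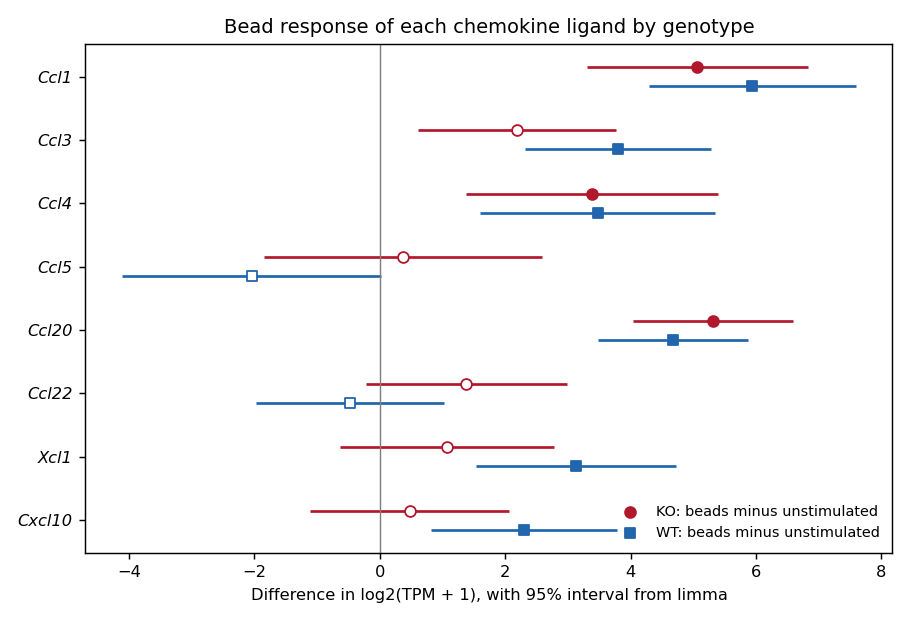
Difference in log2(TPM + 1) between bead and unstimulated libraries for each ligand, with the 95% interval from limma, for KO (circles) and WT (squares); filled symbols were called and open ones were not. Ccl1, Ccl4 and Ccl20 are filled in both genotypes, and the intervals of the KO and WT response overlap for every ligand.

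Averaged over the genotypes, 5 of the 8 ligands were called higher with beads (Ccl1, Ccl3, Ccl4, Ccl20 and Xcl1) and 0 lower, beside 9.08% of all genes called higher and 12.1% called lower. Xcl1 had an averaged difference of 2.10 ± 0.55 (limma adjusted p = 0.013), which without the KO bead library numbered 5 was 1.92 (limma adjusted p = 0.0784, and 0.0035 to 0.0784 over all alternatives). Cxcl10 at 1.39 ± 0.51 was not called (limma adjusted p = 0.0662).

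Whether DOCK8 deficiency changed the ligands was tested with and without beads. With beads limma called 0 of the 8 ligands between KO and WT cells, beside 0.00333% of all genes, and 0 had an unadjusted p under 0.05. Xcl1 was the ligand whose groups did not overlap, at 2.92 and 5.48 TPM in KO cells against 9.77 to 17.2 TPM in WT cells, in a comparison where 8.02% of all genes were lower in KO without overlap. Its log2 difference was -1.46 (95% interval -3.37 to 0.45, limma adjusted p = 1). Ccl3 differed by -1.51 (95% interval -3.28 to 0.25) and Ccl22 by 1.57 (95% interval -0.22 to 3.36). The Ccl22 value rests on single libraries, at -0.22 without the KO bead library numbered 5 and 3.35 without the one numbered 4. For Ccl1 the interval was -2.36 to 1.57, for Ccl4 -2.51 to 1.97 and for Ccl20 -1.54 to 1.31, and none of the 3 passed the test.

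Without beads limma called 0 of the 8 ligands between KO and WT cells, beside 0.0734% of all genes, and 1, Ccl5, had an unadjusted p under 0.05, beside 11.3% of all genes. Ccl5 showed a log2 difference of -1.96 (95% interval -3.70 to -0.21, limma adjusted p = 0.384). Its level was 0 to 25.1 TPM in KO cells and 8.58 to 97.4 TPM in WT cells, and the groups overlapped. Cxcl10 differed by 1.23 (95% interval -0.03 to 2.48, limma adjusted p = 0.454), with 0 to 8.89 TPM in KO cells and 0 to 2.23 TPM in WT cells. The other 6 ligands differed by -0.76 to 0.60.

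The difference between the bead responses of KO and WT cells was tested directly, and limma called 0 of the 8 ligands, beside 0.00333% of all genes, with 0 at an unadjusted p under 0.05. Xcl1 differed by -2.06 (95% interval -4.40 to 0.28), Cxcl10 by -1.82 (95% interval -4.00 to 0.35) and Ccl3 by -1.60 (95% interval -3.77 to 0.56). These are the ligands called in WT cells and not in KO cells, and their responses were not shown to differ (limma adjusted p = 0.999 for each). Ccl5 differed by 2.41 and Ccl22 by 1.85, also not called.

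Receptors of these ligands were followed in the same cells. Ccr8, the CCL1 receptor, had 140 and 126 TPM in KO cells with beads, against 0 to 10.1 TPM in unstimulated KO cells. WT cells had 172, 167 and 165 TPM with beads, against 6.02, 0.607, 11.8 and 13.6 TPM without. It rose by 5.54 in KO cells (limma adjusted p = 0.000895) and 4.64 in WT cells (limma adjusted p = 0.00193) on the log2 scale. Ligand and receptor transcript of the Ccl1 and Ccr8 pair were thus both called higher with beads in both genotypes.

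Ccr4, the CCL22 receptor, had 25.4 and 60.2 TPM in KO cells with beads, against 1.24 to 5.08 TPM in unstimulated KO cells. WT cells had 77.2, 90.7 and 77.3 TPM with beads, against 7.36, 17.9, 21.7 and 12.4 TPM without. It was called higher by 3.29 in KO cells (limma adjusted p = 0.000619) and by 2.48 in WT cells (limma adjusted p = 0.00269), while Ccl22 itself was called in neither. In unstimulated cells the Ccr4 difference of KO against WT cells was -1.86 and was not called (limma adjusted p = 0.0932).

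Ccr6, the CCL20 receptor, had 78.9 and 43.5 TPM in KO cells with beads, against 0.848 to 13.2 TPM in unstimulated KO cells. WT cells had 19.99, 33.5 and 48.4 TPM with beads, against 18.7, 10.4, 46.7 and 8.49 TPM without. It was called higher by 3.76 in KO cells (limma adjusted p = 0.0054) and not in WT cells, where it differed by 0.88 (limma adjusted p = 0.444). The difference of the 2 responses, 2.87, was not called (limma adjusted p = 0.999).

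Cxcr3, the CXCL10 receptor, was called between the genotypes: unstimulated KO cells had 0 to 4.95 TPM, against 14.2, 15.3, 25.6 and 24.3 TPM in unstimulated WT cells, a log2 difference of -3.10 (limma adjusted p = 0.0331). With beads it had 1.75 and 6.05 TPM in KO cells, against 14.9, 13.9 and 14.8 TPM in WT cells, which was not called (limma adjusted p = 1). Ccr1 stayed at or under 6.14 TPM, Ccr3 at or under 3.84 TPM and Xcr1 at or under 3.29 TPM. Of these Ccr3 and Xcr1 were called lower in the averaged bead response, where 12.1% of all genes were called lower.

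**Figure D4:**
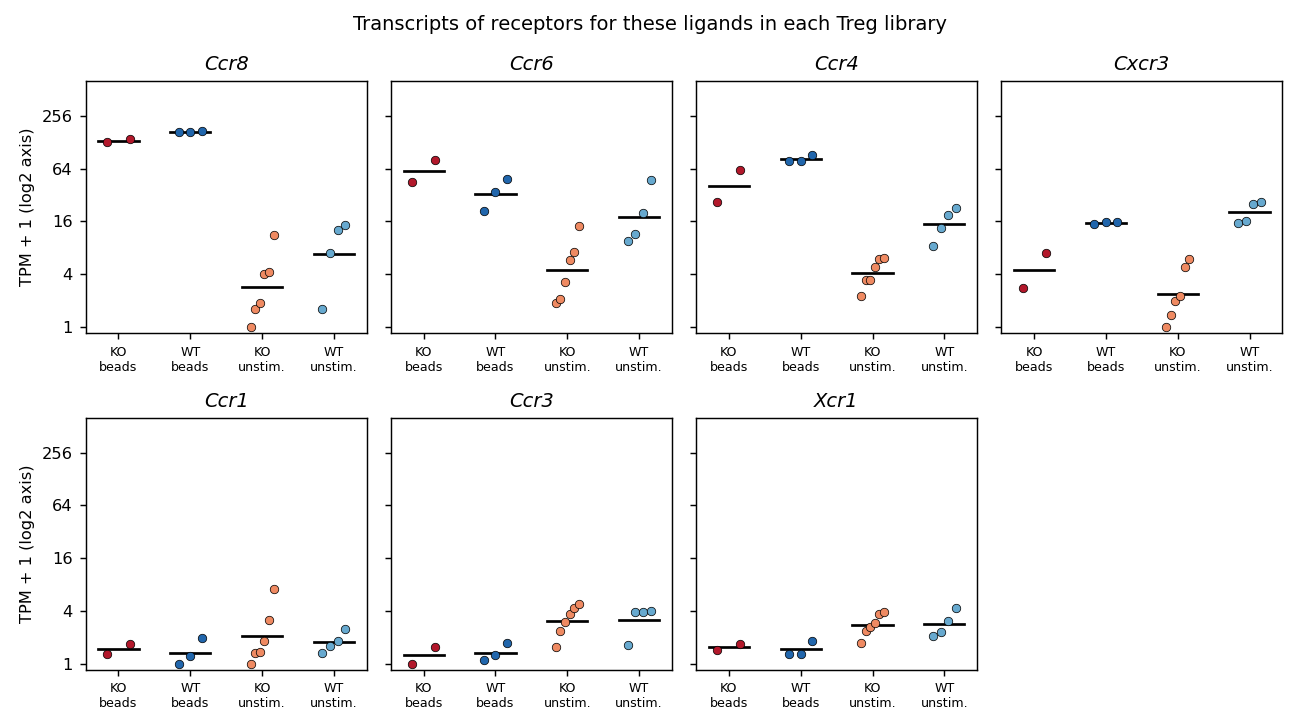
Level of 7 receptors for these ligands as TPM + 1 (log2 axis) in each library; points are libraries and bars are group means of log2(TPM + 1). Ccr8 and Ccr4 lie higher in the bead libraries of both genotypes, and Cxcr3 in KO cells lies below WT cells with and without beads.

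Of 30 other chemokine ligands on the list, 19 were tested, and in neither genotype was one called with beads by limma. In each genotype 5 of the 19 had an unadjusted p under 0.05, beside 21.4% of all genes in KO and 26.1% in WT cells. Averaged over genotypes 4 were called lower, Cxcl5 by -1.51 (limma adjusted p = 0.00906), Ccl25 by -0.89 (limma adjusted p = 0.0137), Cxcl3 by -0.96 (limma adjusted p = 0.0158) and Cxcl1 by -1.14 (limma adjusted p = 0.0482), and 0 higher. Over all genes 12.1% were called lower and 9.08% higher. The median of the 19 was -0.62, beside -0.34 over all genes. Among those that averaged 5 TPM or more in any group, Ccl25 averaged 9.43 TPM in KO cells and 8.97 TPM in WT cells with beads, against 17.8 and 18.0 TPM in unstimulated KO and WT cells. Cxcl5 averaged 3.45 and 2.09 TPM in KO and WT cells with beads, against 13.6 and 7.78 TPM in unstimulated KO and WT cells. Ccl6, Ccl9, Ccl11, Ccl27a and Cxcl15 reached 5 TPM on average in unstimulated KO cells and in no bead group, and so did Pf4, which is not listed in the bead tables. Cxcl9, which with Cxcl10 binds CXCR3, averaged 1.36 and 0.549 TPM in KO and WT cells with beads.

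Of 15 other chemokine receptors 14 were tested. In the averaged response 3 were called lower, Cxcr2 by -1.53 (limma adjusted p = 0.00059), Ccr2 by -0.97 (limma adjusted p = 0.0197) and Ackr3 by -0.98 (limma adjusted p = 0.0343), and 0 higher. Of all genes 12.1% were called lower and 9.08% higher in that response. Between genotypes Cxcr6 was called lower in unstimulated KO cells, at 2.54 ± 1.57 TPM (SD, n = 6) against 29.9 ± 11.9 TPM (SD, n = 4) in unstimulated WT cells (limma adjusted p = 0.016). Of 21 genes of chemokine receptor signalling 4 were called higher and 4 lower in the averaged response, led by Rgs16 (2.39) and Rgs1 (2.03), which limit G protein signalling, and by Dock2 (-1.12), an exchange factor that drives migration.

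Of 29 T cell activation genes tested, 22 were called higher with beads in KO cells and 18 in WT cells, and 0 lower in either, beside 5.95% of all genes called higher in KO and 4.60% in WT cells. Irf4, a transcription factor of activated T cells, averaged 79.7 ± 9.35 TPM in KO cells with beads against 1.33 ± 0.69 TPM without, and 92.1 ± 1.90 TPM in WT cells with beads against 1.14 ± 0.78 TPM without (SD). Myc, Tnfrsf4 and Il2ra rose by 4.74, 4.26 and 3.68 in the averaged response (limma adjusted p = 4.55e-07, 6.77e-07 and 1.18e-06). Between KO and WT cells limma called no activation gene, with 2 of 29 at an unadjusted p under 0.05 with beads and 8 without, beside 2.89% and 11.3% of all genes.

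Interferon-gamma targets were read beside Cxcl10. Of 18 tested, 2 were called higher with beads in KO cells (Socs1 and Psmb8) and 8 in WT cells, Socs1, Gbp2 and Psmb8 among them, and 0 were called lower in either. Of all genes 5.95% were called higher in KO and 4.60% in WT cells. Gbp2 averaged 11.4 ± 4.81 TPM in KO cells with beads and 106 ± 40.7 TPM in WT cells with beads (SD). The median difference of KO against WT cells with beads was -1.31 over the 18, beside 0.13 over all genes, with 1 of 18 above 0. By limma 0 of the 18 were called and 14 had an unadjusted p under 0.05, beside 2.89% of all genes. Without beads the median was -0.79, beside -0.11 over all genes, again with 1 of 18 above 0. There 0 of the 18 were called and 10 had an unadjusted p under 0.05, beside 11.3% of all genes. Cxcl10 itself differed by -0.60 with beads and by 1.23 without, neither called. Ifng itself averaged 0.948 TPM in KO cells with beads and 2.32 TPM in WT cells with beads and was not called.

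B cell markers, 10 on the list, summed to 138 and 146 TPM in KO cells with beads and 268 to 319 TPM in WT cells with beads, against 78.8 to 260 TPM in unstimulated KO cells and 247 to 558 TPM in unstimulated WT cells. By limma none of the 9 tested was called in any comparison, with at most 1 at an unadjusted p under 0.05. Their part in the ligand levels was not tested.

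The genes whose log2(TPM + 1) pattern was most like each ligand were sought among 9890 genes over the 15 libraries, as a description, since all libraries share the split by beads. Ccl20 was most like Gnl3 (Pearson r = 0.97, and 0.62 within groups), Hspa5 and Wdr43. Ccl1 was most like Mcm2 (r = 0.95, and 0.57 within groups), Surf2 and Alg3. Ccl3 was most like Nup93, Orc6 and Rangrf, Ccl4 like Atic, Mrps11 and Psmd12, and Xcl1 like Eif3j2, Cdk1 and Gspt1. Ccl5 was most like Ncor1 (r = 0.92, and 0.95 within groups), Cited2 and Syap1. Cxcl10 was most like Tmem64, Mrpl44 and Sar1a, and Ccl22 like Ankrd29, Ccdc38 and Ttk, with lower values. Among the ligands the highest value was that of Ccl4 with Ccl20 (r = 0.90, and 0.69 within groups).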

How the data were processed

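The authors deposited 1 table of TPM per gene for each of the 15 libraries, and the submitters' processing notes name STAR, Salmon, DESeq2 and the mm10 genome, without versions or roles. Depth is unknown, so no count model was used. Gene symbols and coordinates came from GENCODE vM21 on GRCm38 (mm10), and promoter sequences from RefSeq (GRCm38.p6).

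From the deposited TPM, log2(TPM + 1) was computed here. The package limma 3.58.1 under R 4.3.3 estimated each group's mean, using a variance trend, which left 11 residual degrees of freedom. A gene entered the tests when 2 or more libraries reached 1 TPM, which held for 29989 of 30949 listed in all tables, in 6 comparisons. p-values were adjusted by the Benjamini-Hochberg method over all genes of a comparison, and called means an adjusted p under 0.05. The fit was also run on simulated data with 200 changed genes. The outcome of that run is not reported here, and no result rests on it. Differences keep the log2(TPM + 1) scale, which understates changes of low genes, ± beside them is the SE, and ± beside TPM is the SD.

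The 8 ligands and the gene lists were chosen with earlier results of these data known. All 8 ligands and 7 receptors are named; some further items are not reported here. From each other list the called genes with the smallest p, or the highest genes where none was called, were eligible. Genes singled out beyond this were chosen after their values were seen. Alternatives were other pseudocounts, filters and scalings, gene sets, array weights, no variance trend, the title number as a block, and each library left out.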

Additional observations from a re-analysis of the deposited data

Results flagged for a closer look

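Among 18 groups of 4 or 6 unstimulated libraries tested for a lone high or low value, over the 8 ligands and their sum, 2 stood apart, both for Ccl3. In unstimulated KO cells, the library numbered 5 had 5.22 TPM of Ccl3 and the other 5 libraries were listed at 0. In unstimulated WT cells, the library numbered 3 had 1.64 TPM of Ccl3 and the other 3 libraries were listed at 0. The rule flags about 1 in 20 groups by chance where values are normally distributed, and its rate for TPM values was not tested. Where all other libraries are at 0 any single value above 0 is flagged.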

How the results depend on the processing

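Under 28 or 29 alternatives for nearly every result, the bead responses of Ccl1 and Ccl20 stayed called in both genotypes, at 3.90 to 5.93 and 3.44 to 7.71 in KO cells and 4.55 to 6.87 and 3.35 to 5.43 in WT cells. Ccl3 stayed called in WT cells (2.06 to 6.34), and 0 ligands were called between KO and WT cells in any alternative. Of 1370 values for single ligands, 1292 kept direction and call. Leaving out a library outside the groups compared, or changing the filter or variance trend, cannot change a difference, only its p-value. Such runs count as kept direction without testing it. The number of ligands called higher in WT cells was 6, but 3 with a pseudocount of 0.1 TPM, and 3 to 6 with 1 library left out, at 3 without the WT bead library numbered 2. The cause was not tested. Ccl4 lost its call in 11 of 29 alternatives in KO cells and 6 of 29 in WT cells, and Xcl1 in WT cells in 3. The averaged Cxcl10 response was called in 6 of 28.

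Signs of uncalled values changed as follows. A pseudocount of 0.1 TPM gave -0.076 for Ccl3 in KO against WT unstimulated cells and 0.54 for the difference between the Ccl4 responses, which was 0.079 after rescaling without the abundant predicted genes and 0.19 with array weights. With 1 library left out, KO against WT cells with beads ranged from -1.33 to 0.40 for Ccl1, -0.39 to 1.30 for Ccl5, -0.61 to 0.34 for Ccl20 and -0.22 to 3.35 for Ccl22. Without beads it ranged from -0.35 to 0.44 for Ccl3 and -0.71 to 0.19 for Ccl4. The KO bead response ranged from -0.48 to 1.21 for Ccl5 and -0.41 to 3.16 for Ccl22, the averaged response of Ccl22 from -0.44 to 1.35, and the difference between the Ccl4 responses from -0.45 to 0.44. Without 1 KO bead library, the lone sample left is assumed to vary like the other groups.

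Deviations of same-numbered libraries had correlations of -0.07 to 0.07, and those of the 2 unnumbered libraries 0.14. The labels do not say what a number marks, so no pairing was assumed. With the number as a replicate block, KO against WT cells gave 1.53 for Ccl4 and 0.57 for Ccl20 with beads, and -0.35 for Ccl3 and 0.54 for Ccl4 without; the KO response of Cxcl10 was -0.008 and the difference between the Ccl4 responses 0.99. No call of a ligand changed under the block. The median of all genes in the WT bead response was -0.44, and ran from -0.71 to -0.05 over the other scalings. The unknown depth and 2 KO bead libraries limit every value.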
